A study of Mus musculus with 10 samples.

Results

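A set of 10 genes that hold or release the meiotic arrest of the oocyte and drive entry into M phase was followed in 10 RNA-seq libraries of mouse oocytes and early embryos. The genes were Mos, Fbxo43, Wee2, Cdc25b, Ccnb1, Ccnb2, Ccna2, Plk1, Cdc20 and Cdk1. They were chosen by name from the 21437 genes of the expression table, all 10 have a row there, and all 10 passed the filter on low values (at least 1 FPKM in at least 2 libraries) that left 8726 genes for the tests. FPKM give the fragments of a gene scaled to its exon length and to the size of the library. The series set MII oocytes beside embryos at the mid 2-cell stage and the early 4-cell stage, each as control and as Ago2 kd, with 2 libraries in each of the 5 groups, to follow maternal mRNA degradation with and without AGO2, an Argonaute protein that cuts or silences RNAs paired to its small guide RNAs.

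The oocytes were taken 16 h after the ovulation-inducing hormone hCG, the 2-cell embryos at 40 h and the 4-cell embryos at 55 h. The labels give every library the strain ICR and call the MII oocyte and the control embryos wild type, while the Methods give 7-week-old ICR females for the oocytes and 7-week-old F1 females mated with F1 males for the embryos, so stage and cross cannot be told apart between oocyte and embryo. The females that gave the embryos were superovulated with 6.5 IU PMSG followed 47 h later by 5 IU hCG, and the Methods state no doses for those that gave the oocytes. The Ago2 kd embryos are labelled Ago2-kd and were injected as zygotes with siRNA against Ago2 and an antibody to AGO2. A scrambled siRNA is named as the negative control of the injections, but the labels do not say whether the control embryos of these libraries received it. The number of embryos behind a library is not given in the sources used here, and Ago2 itself was not analysed here, so the knockdown was not checked on its own mRNA.

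A mature oocyte waits at metaphase of meiosis II until it is fertilized. The kinase that keeps it there is maturation-promoting factor, made of CDK1 and cyclin B, and the arrest needs MOS, which starts a MAP kinase cascade, and EMI2 (the product of Fbxo43), which holds back the anaphase-promoting complex or cyclosome (APC/C). Fertilization frees the APC/C, its activator CDC20 brings cyclin B to it for destruction, and WEE2, an oocyte kinase, puts the inhibitory phosphate on CDK1. CDC25 phosphatases take that phosphate off, cyclin A2 drives S phase and early mitosis, and the polo-like kinase PLK1 acts from mitotic entry to anaphase. The maternal mRNAs of the oocyte are cleared over the first divisions while the embryo begins its own transcription, which in the mouse reaches its main wave at the 2-cell stage.

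The start-site sequences of the genes are shown first because Cdc20, Plk1 and Cdk1 all had higher values in both 4-cell than in both 2-cell control libraries while Wee2 was listed at 0 in every 4-cell library. Of these rises only that of Cdc20 passed (limma adjusted p = 0.0322, in 9 of 18 alternative settings). Those of Plk1 and Cdk1 did not (adjusted p = 0.316 and 0.192). RefSeq windows on build GRCm38.p6, from 250 bases before to 50 bases after the annotated start, matched 7 of the 10 genes by symbol, without Mos, Fbxo43 and Ccna2. The windows were searched on both strands for TTTGAA, the letters of the cell cycle genes homology region that is known from promoters of G2 and M phase genes, and for CCAAT, the letters bound by NF-Y, which read ATTGG on the other strand; the matches share no letters here. The stretches below run 5′ to 3′ along each gene from 120 bases before the start to 50 bases after it, with both motifs in capitals.
Cdc20, chr4:118437294-118437463, minus strand: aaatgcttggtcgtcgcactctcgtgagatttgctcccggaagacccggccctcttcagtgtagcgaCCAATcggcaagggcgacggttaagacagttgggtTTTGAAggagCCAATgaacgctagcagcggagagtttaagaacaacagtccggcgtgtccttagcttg
Plk1, chr7:122159315-122159484, plus strand: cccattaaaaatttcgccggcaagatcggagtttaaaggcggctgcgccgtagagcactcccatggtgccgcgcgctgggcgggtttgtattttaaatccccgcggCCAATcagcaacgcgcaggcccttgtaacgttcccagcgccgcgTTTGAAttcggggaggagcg
Cdk1, chr10:69352863-69353032, minus strand: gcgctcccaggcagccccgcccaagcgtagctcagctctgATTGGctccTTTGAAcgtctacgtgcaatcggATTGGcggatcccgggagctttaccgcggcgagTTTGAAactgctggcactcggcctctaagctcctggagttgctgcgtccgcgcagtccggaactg
Wee2, chr6:40442743-40442912, plus strand: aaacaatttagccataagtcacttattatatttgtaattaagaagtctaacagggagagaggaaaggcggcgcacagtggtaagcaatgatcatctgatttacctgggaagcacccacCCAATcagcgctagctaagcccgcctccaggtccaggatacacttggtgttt

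TTTGAA was found in 4 of the 7 windows, those of Cdc20, Plk1, Ccnb2 and Cdk1, against 17.9% of all 32851 windows in the RefSeq table. CCAAT was found in 7 of the 7, against 37.4% of all windows, and both motifs in 4 of the 7, against 6.95%. Counted with the start as base 1, the TTTGAA of Cdc20 began at base -18, that of Plk1 at base 31 and those of Cdk1 at bases -71 and -15. In Ccnb2 it began at bases -167 and 5, and its 4-cell control values overlapped the 2-cell ones. These matches describe letters only. The printed windows were picked by the values of their genes, and a link between motif and level was not tested. Ccna2, also higher in both 4-cell than in both 2-cell controls, has no window here. The windows of Wee2, Ccnb1 and Cdc25b do not hold these 6 letters. Other spellings of the region were not searched, so its absence there is not shown, and binding of a factor was not measured. The Wee2 window lies inside the gene as GENCODE M21 places it (chr6:40439088-40466813), so its start differs between the RefSeq and GENCODE annotations.

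The ends of the mRNAs were read as well, because stored oocyte mRNAs are known to be lengthened or shortened at the poly(A) tail through cytoplasmic polyadenylation elements that lie near the poly(A) signal. In the last 120 bases of the longest coding transcript of each gene in GENCODE M21 (GRCm38), the poly(A) signal AATAAA or ATTAAA was present in 10 of 10 genes, against 82.1% of the 6547 tested genes with such a transcript. The element TTTTAT or TTTTAAT, searched on the mRNA strand, was present in Fbxo43, Wee2 and Cdc20, or 3 of 10 genes, against 22.2%. The 30 bases around the last such element are printed with the elements and poly(A) signals in capitals.
Fbxo43: tgtgtTTTTATactatacacacatatttca
Wee2: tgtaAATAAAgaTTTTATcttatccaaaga
Cdc20: TTTTATTTTATtttttctAATAAAgttcgt

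The last Wee2 element began 18 bases and the last Cdc20 element 35 bases before the annotated end, while that of Fbxo43 began 103 bases before it. A further element began 46 bases before the end in Wee2 and 40 in Cdc20. The poly(A) signal began 26 bases before the end in Wee2, between its elements, and 22 in Cdc20, after both. The annotated end need not be the end used in the oocyte, and tail length was not measured.

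In control embryos the 10 genes followed different courses. Mos was lost between the oocyte and the 2-cell stage, Fbxo43 fell at both steps, Wee2 and Cdc25b stayed at their oocyte level or above until the 2-cell stage and then fell, and Cdc20 was high in oocytes, low at the 2-cell stage and high again at the 4-cell stage. From MII oocyte to 2-cell, 4 of the 10 genes were lower after adjustment (Mos, Fbxo43, Plk1 and Cdc20) against 14.2% of all genes tested, and 0 were higher against 6.53% (limma, Benjamini-Hochberg adjusted p below 0.05). At an unadjusted p below 0.05 the counts were also 4 lower and 0 higher. From 2-cell to 4-cell, 3 of the 10 were lower (Fbxo43, Wee2 and Cdc25b) against 17.4% of all genes and 1 was higher (Cdc20) against 21.1%. Over the whole span from MII oocyte to 4-cell, 6 of the 10 were lower (Mos, Fbxo43, Wee2, Cdc25b, Ccnb2 and Plk1) against 26.3%, and 0 were higher against 22%, with 7 lower and 0 higher at an unadjusted p below 0.05.

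**Figure D1:**
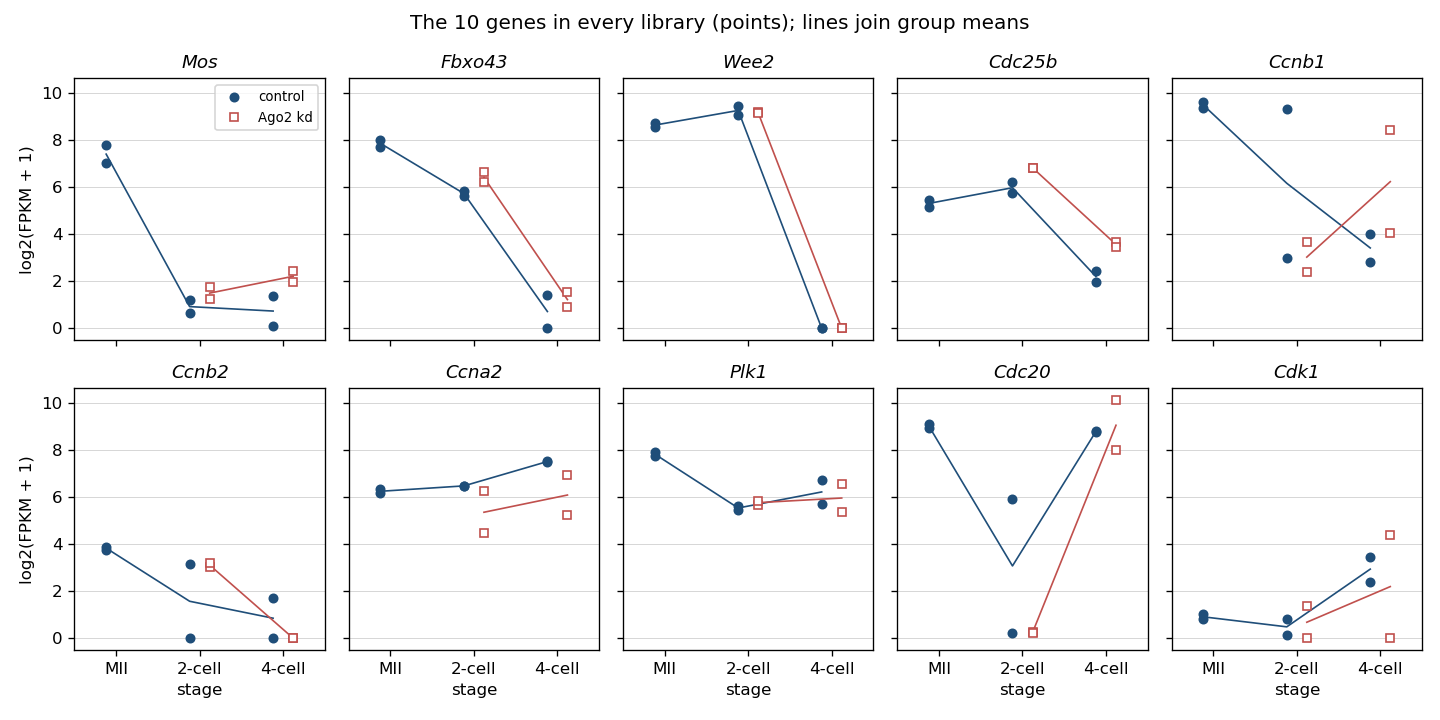
Level of each of the 10 genes as log2(FPKM + 1) on the vertical axis against stage on the horizontal axis. Each filled circle is a control library, each open square an Ago2 kd library, and lines join the means of the log2 values. Mos, Fbxo43, Wee2 and Cdc25b end low in both kinds of 4-cell embryo, Cdc20 dips at 2-cell and is high at 4-cell, and the libraries of Ccnb1 lie far apart.

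FPKM are shares of a library, so a lower share cannot be told apart from a larger total of other RNAs, nor fewer transcripts per cell from fewer cells. The summed FPKM were 450124 and 458874 in the oocyte libraries and 178681 to 326352 in the 8 embryo libraries. The median difference of all genes between 2-cell and 4-cell controls was 0.24 on the log2 scale as deposited and 0.07 after scaling each library to the same median. Between oocytes and 2-cell controls it was -0.06 and 0.02, yet this scaling moved the 10 genes further, all upward. Wee2 went from 0.62 to 1.25, Plk1 from -2.29 to -1.66 and Fbxo43 from -2.13 to -1.50. The level of each gene below is also read against such scaling where it mattered. Summed over 7 of 7 oocyte markers, FPKM were 5269 to 6207 in oocytes, 603 to 1000 in 2-cell controls, 571 to 637 in 2-cell Ago2 kd, 1.22 to 5.40 in 4-cell controls and 3.96 to 26.5 in 4-cell Ago2 kd. Gdf9 and Zar1 carried most of the oocyte sum, while Bmp15 was at 605 and 449 FPKM in oocytes and at 787 and 436 in 2-cell controls, and the zona gene Zp1 was at 0 and 0.569 in oocytes. The 4 of 6 markers of the 2-cell genome activation with a row summed to 89.6 to 115 in oocytes, 578 to 659 in 2-cell controls and 321 to 453 in 2-cell Ago2 kd. At the 4-cell stage they summed to 2.47 to 7.21 in controls and 25.1 to 28.9 in Ago2 kd, so that the sums did not overlap at either stage. Singly, the markers disagreed at 2-cell. Tcstv3 was lower in Ago2 kd (134 in both libraries against 273 and 306 FPKM). Tcstv1 was higher (90.9 and 69.5 against 56.6 and 62.1), Zfp352 overlapped, and Zscan4d was above 0 only in the control of 51.3 FPKM. Both Tcstv3 values in Ago2 kd were identical, as in the last block of genes described below for Cdc25b. Of 8 cumulus cell markers only Foxl2 has a row, and it was at 0 in all 10 libraries. Sperm markers (2 of 3 with a row) summed to 1.78 FPKM at most, and blood markers (3 of 3) to 7.04 at most, the latter in a 4-cell Ago2 kd library.

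The first group holds the genes of the metaphase II arrest. Mos (chr4:3870657-3872105, minus strand, 1 annotated transcript), the kinase that starts the cytostatic MAP kinase cascade, was at 127 and 220 FPKM in the MII oocyte libraries, at 0.556 and 1.29 in 2-cell controls and at 0.0699 and 1.57 in 4-cell controls. Both oocyte libraries were far above every embryo library, and the 2-cell and 4-cell controls overlapped. The difference from oocyte to 2-cell was -6.47 ± 0.56 on the log2(FPKM + 1) scale (SE, n = 2 against 2, limma adjusted p = 0.000548), and it stayed past the threshold in 18 of 18 alternative settings. From 2-cell to 4-cell it was -0.19 with a 95% interval from -1.52 to 1.15, so at the low level left by the 2-cell stage a further change was not detectable.

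Fbxo43 (chr15:36150060-36164884, minus strand), whose product EMI2 inhibits the APC/C, stood at 253 and 208 FPKM in oocytes, at 55.8 and 47.9 in 2-cell controls and at 0 and 1.67 in 4-cell controls. The libraries of the 3 stages did not overlap. From oocyte to 2-cell it fell by 2.13 ± 0.53 log2 units with an adjusted p of 0.0297, but passed in only 10 of 18 alternatives; the call was lost with a pseudocount of 0.1, without the filter, under both scalings (where the difference came to -1.001 with quantile normalization) and without any single library of these 2 groups, with adjusted p up to 0.356 over the alternatives. From 2-cell to 4-cell it fell by 5.01 ± 0.53 log2 units (adjusted p = 0.000608), a call kept in 18 of 18.

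Wee2 (chr6:40439088-40466813, plus strand), the oocyte kinase that inhibits CDK1, gave 420 and 369 FPKM in oocytes and 690 and 533 in 2-cell controls. It was listed at 0 in both 4-cell controls, so no fold is given; the limma test of the step from 2-cell to 4-cell gave an adjusted p of 1.53e-05 and was past the threshold in 18 of 18 alternatives. Both 2-cell controls lay above both oocyte libraries. That rise of 0.62 log2 units did not pass (adjusted p = 0.176) on the deposited scale, and did after scaling to the same median (1.25, adjusted p = 0.0326) and after quantile normalization (1.70, adjusted p = 0.0105). Over all 18 alternatives the adjusted p ran from 0.0105 to 0.496.

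Together with Fbxo43 and Wee2, Cdc25b (chr2:131186949-131198497, plus strand), a phosphatase that activates CDK1, made up the genes that fell at the second step. It was at 42.3 and 34.9 FPKM in oocytes, at 72.9 and 51.9 in 2-cell controls and at 2.91 and 4.34 in 4-cell controls. The 2-cell controls were above the oocytes by 0.67 log2 units (adjusted p = 0.294), a difference that came to 1.28 with each library scaled to the same median (adjusted p = 0.103) and to 1.68 with quantile normalization (adjusted p = 0.0736) and passed in neither. The 4-cell controls were below both stages, with a difference from 2-cell of -3.77 ± 0.37 log2 units (adjusted p = 0.000879, kept in 18 of 18 alternatives).

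Cdc25b needs a reservation that the other 9 genes do not. The table is a run of 18 blocks of genes in alphabetical order, and Cdc25b stands in the last of them, 196 genes whose values were identical in both 2-cell Ago2 kd libraries (193 of them above 0), which was true of 0 genes above 0 elsewhere. Those identical values were counted as 1 library. Among the 126 genes of that block that passed the filter, 94.4% had both 4-cell controls below both 2-cell controls, against 29.3% of the 8600 other genes tested, and 87.3% had both 4-cell Ago2 kd libraries above both 4-cell controls, against 19.1%. The part of this block in the values of Cdc25b was not tested.

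The cyclins came next in the pathway. Ccnb1 (chr13:100778650-100786570, minus strand), the main cyclin partner of CDK1, was at 785 and 644 FPKM in oocytes, at 638 and 6.95 in 2-cell controls and at 6.08 and 14.9 in 4-cell controls. One 2-cell control was thus at oocyte level and the other at the 4-cell level. Between oocyte and 4-cell, whose libraries did not overlap, the difference was -6.07 ± 2.14 log2 units with an adjusted p of 0.0524, just short of the threshold, and over 18 alternatives it ran from 0.00628, in the fit of those 2 groups alone, to 0.187. It also passed without either 2-cell control (0.0170 and 0.0168) and without either 4-cell Ago2 kd library (0.0462 and 0.0465). Neither single step passed (adjusted p = 0.354 and 0.350).

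Processed pseudogenes, 4 in number, match the Ccnb1 transcript over 1272 to 1294 bases, with 94.4% to 99.2% identity, and 2 of them have a row of their own. Gm12856, at 98.1% identity, held 52.9 to 76.3 FPKM in all oocyte, control and 2-cell kd libraries and 110 and 107 in the 4-cell Ago2 kd libraries, while Gm4870 stayed at or below 0.297. How reads were shared between Ccnb1 and these copies is not given in the sources used here, so its values are uncertain.

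Ccnb2 (chr9:70407692-70421547, minus strand), the second B-type cyclin, was far lower: 12.5 and 13.8 FPKM in oocytes, 7.78 and 0 in 2-cell controls and 2.24 and 0 in 4-cell controls. Its oocyte libraries lay above all 4 control embryo libraries, and the embryo stages overlapped. From oocyte to 4-cell it fell by 2.98 ± 1.01 log2 units (adjusted p = 0.0463), a call kept in only 5 of 18 alternatives, with adjusted p from 0.00921 to 0.219, and lost without any single library other than a 2-cell control. From oocyte to 2-cell it did not pass (-2.26, adjusted p = 0.178), and it did without the 2-cell control of 7.78 FPKM (-3.82, adjusted p = 0.0226).

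Ccna2 (chr3:36564865-36572150, minus strand), cyclin A2, was the one cyclin with higher values in 4-cell than in oocyte libraries: 69.9 and 79.2 FPKM in oocytes, 88.4 and 86.4 in 2-cell controls and 184 and 176 in 4-cell controls. The 3 stages did not overlap and the replicates lay close together, yet the differences of 0.23 and 1.03 log2 units at successive steps did not pass (adjusted p = 0.931 and 0.289), the first of them coming to 1.34 with quantile normalization (adjusted p = 0.186). From oocyte to 4-cell the difference of 1.26 did not pass either (adjusted p = 0.185), and it did with quantile normalization (1.81, adjusted p = 0.0410) and in the fit of those 2 groups alone (adjusted p = 0.0115). The model shares 1 spread over all 5 groups. Fitted on the 4 libraries of 2-cell and 4-cell controls alone, the second step gave an adjusted p of 0.0289; over the alternatives it ran up to 0.567. Ccna2 shares 510 exon bases with Exosc9 on the other strand, a gene at 1.11 to 49.9 FPKM here, and the strand setting of the counting is not given in the sources used here. Opposite-strand exons also overlap Cdc25b (92 bases), Plk1 (156 bases) and Cdc20 (53 bases).

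The mitotic kinases and the APC/C activator form the last group. Plk1 (chr7:122159439-122169873, plus strand) was at 238 and 212 FPKM in oocytes, at 42.0 and 48.5 in 2-cell controls and at 105 and 50.9 in 4-cell controls. The oocytes were above all embryos, and one 4-cell control was close to the 2-cell level. Plk1 fell by 2.29 ± 0.49 log2 units from oocyte to 2-cell (adjusted p = 0.0181, past the threshold in 12 of 18 alternatives). The call was lost under both scalings, where the difference came to -1.19 with quantile normalization, and without any single library of these 2 groups, with adjusted p up to 0.226. The rise of 0.68 to the 4-cell stage did not pass (adjusted p = 0.316), and the difference of -1.61 from oocyte to 4-cell did (adjusted p = 0.0319), in 9 of 18 alternatives and not without either oocyte library, either 2-cell control or the 4-cell control of 50.9 FPKM, with adjusted p up to 0.194.

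Cdc20 (chr4:118432901-118437352, minus strand) gave 482 and 539 FPKM in oocytes, 0.176 and 58.8 in 2-cell controls and 437 and 440 in 4-cell controls. Both 2-cell libraries were below all oocyte and 4-cell libraries but differed from each other by far more than any other pair of Cdc20 replicates. It fell by 5.93 ± 1.65 log2 units (adjusted p = 0.0450) and then rose by 5.71 ± 1.65 (adjusted p = 0.0322), calls kept in 3 and 9 of 18 alternatives, with adjusted p up to 0.198 and 0.166. The first was lost without any single library other than the 2-cell control of 58.8 FPKM, and the second without any other than that one and the 4-cell Ago2 kd libraries. With the 2-cell control of 0.176 FPKM left out, the differences were -3.09 and 2.88, and neither passed. Between oocyte and 4-cell the difference was -0.22, and it turned to 0.10 and 0.56 under the 2 scalings.

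Cdc20 and Plk1 each have 1 processed pseudogene of high identity, Gm7856 (93.7%) and Plk-ps1 (93.5%). Gm7856 was at 0.339 to 5.82 FPKM and Plk-ps1 at 0.0963 to 0.922, far below Cdc20 in oocytes and 4-cell embryos and below Plk1 everywhere; at the 2-cell stage the low Cdc20 values of 0.165 to 0.192 FPKM were under those of Gm7856.

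Cdk1 (chr10:69335146-69352938, minus strand), the catalytic subunit itself, had the lowest mean FPKM of the 10 in oocytes and 2-cell controls. In 4-cell controls its mean was not the lowest. It was at 1.02 and 0.741 FPKM in oocytes, 0.101 and 0.770 in 2-cell controls and 10.1 and 4.26 in 4-cell controls. Cdk1 has 7 annotated transcripts, and how they were reduced to 1 value is not given in the sources used here. The 4-cell controls were above all 4 earlier control libraries. Its rise of 2.45 ± 1.31 log2 units from 2-cell to 4-cell did not pass (adjusted p = 0.192), and it did when either of the 4-cell Ago2 kd libraries was left out (adjusted p = 0.0238 and 0.0220), which enter the shared spread with 0 and 19.8 FPKM.

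**Figure D2:**
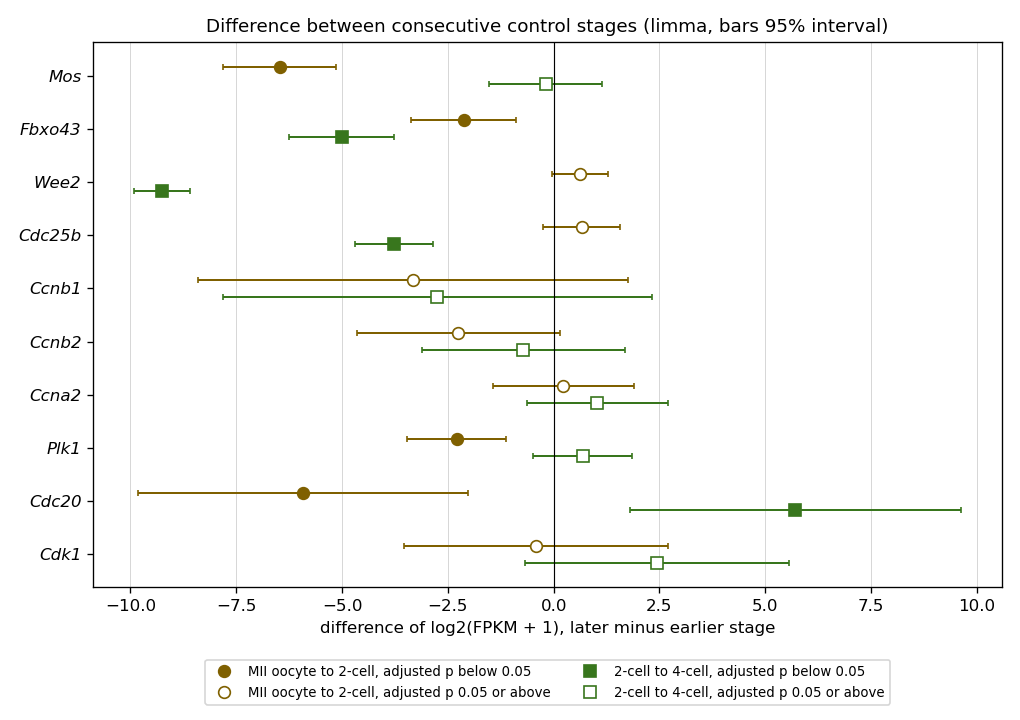
Difference in log2(FPKM + 1) between consecutive control stages on the horizontal axis for the 10 genes on the vertical axis; circles are MII oocyte to 2-cell, squares 2-cell to 4-cell, bars the 95% interval, and filled symbols an adjusted p below 0.05. Mos is called at the first step alone, Wee2 and Cdc25b at the second alone, Fbxo43 at both as lower, and Cdc20 turns from lower to higher.

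At the 2-cell stage, 0 of the 10 genes differed between Ago2 kd and control after adjustment (limma) against 0.539% of all genes, and 0 had an unadjusted p below 0.05 against 5.8%. Fbxo43 was at 97.1 and 72.2 FPKM with Ago2 kd, both above the controls (55.8 and 47.9), with a difference of 0.69 log2 units and a 95% interval from -0.56 to 1.93. Mos, at 1.38 and 2.32 FPKM, was also above both controls at that low level (0.57, interval -0.76 to 1.91). Both 2-cell Ago2 kd libraries were above both controls in 14.1% of the tested genes outside the block of Cdc25b. Inside that block the share was 34.1%. Ccna2 was below both controls, at 20.99 and 74.3 FPKM, with a difference of -1.12 and an interval from -2.79 to 0.55.

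Plk1, at 50.04 and 56.1 FPKM in 2-cell Ago2 kd, was slightly above both controls, with a difference of 0.23. Wee2 was at 572 and 556 FPKM, inside the range of the controls, and had the narrowest interval of the 10 genes, -0.76 to 0.55. Cdc25b was at 112 FPKM in both files of this group, counted as 1 library, and its difference of 0.85 had an interval from -0.27 to 1.97.

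For Ccnb1, Cdc20, Ccnb2 and Cdk1 the replicates left wide intervals. Ccnb1 was at 11.5 and 4.26 FPKM, close to the lower 2-cell control only, and its interval ran from -8.21 to 1.94. Cdc20 was at 0.192 and 0.165 FPKM, at the level of the lower 2-cell control and under the higher one of 58.8. Ccnb2, at 7.07 and 8.13 FPKM, stood about where the higher 2-cell control was, and Cdk1, at 0 and 1.55, overlapped the controls.

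At the 4-cell stage, 0 of the 10 genes differed after adjustment against 3.91% of all genes, and 2 of the 10 had an unadjusted p below 0.05 against 15.3%, both with higher values in Ago2 kd. They were Mos, at 4.39 and 2.95 FPKM against 0.0699 and 1.57 in controls (1.48 ± 0.56 log2 units, unadjusted p = 0.0346, adjusted p = 0.273 by limma), and Cdc25b, at 11.7 and 9.88 FPKM against 2.91 and 4.34 (1.36 ± 0.37, unadjusted p = 0.0108, adjusted p = 0.146 by limma). In both genes the Ago2 kd libraries lay above both controls, yet far below the level at the stage from which the mRNA was lost. Both 4-cell Ago2 kd libraries were also above both controls in 19.1% of the tested genes outside the block of Cdc25b. For Cdc25b the block of the table described above has most of its genes moving the same way. The summed markers of the 2-cell genome activation were also higher in both 4-cell Ago2 kd libraries than in both controls. Tcstv3, with the identical 2-cell Ago2 kd values of that block, gave 13.7 and 13.5 FPKM of the Ago2 kd sums. Tcstv1 and Zfp352 were higher too, and Zscan4d was at 0. The part of these markers in the values of Mos and Cdc25b was not tested.

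Wee2 was listed at 0 in both 4-cell Ago2 kd libraries, as in both controls. Fbxo43 was at 1.88 and 0.869 FPKM, overlapping the controls (0.51, interval -0.74 to 1.75). Ccnb2 was listed at 0 in both, and in one of the controls.

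Ccna2 was again below both controls, at 36.2 and 122 FPKM against 184 and 176, with a difference of -1.42 and an interval from -3.09 to 0.25 (adjusted p = 0.416). Ccnb1 was at 15.3 and 341 FPKM, both above the controls, but the 2 values lay so far apart that the interval ran from -2.26 to 7.89. Plk1 (93.4 and 39.5 FPKM) overlapped its controls.

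Cdc20 reached 1099 and 251 FPKM, on either side of the controls at 437 and 440. Cdk1 was at 0 and 19.8 FPKM, also on either side of its controls. In the library with Cdk1 at 0, replicate 1 of the 4-cell Ago2 kd group, 14.6% of the genes above 10 FPKM in its replicate were below 0.1, against at most 5.81% in the other 9 libraries. Without that library, Cdk1 within Ago2 kd was higher at 4-cell than at 2-cell (3.70, adjusted p = 0.0145 against 0.407 with it), the kd difference of Cdk1 turned from -0.74 to 1.45 and that of Cdc20 from 0.26 to -0.80, and neither kd difference passed.

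**Figure D3:**
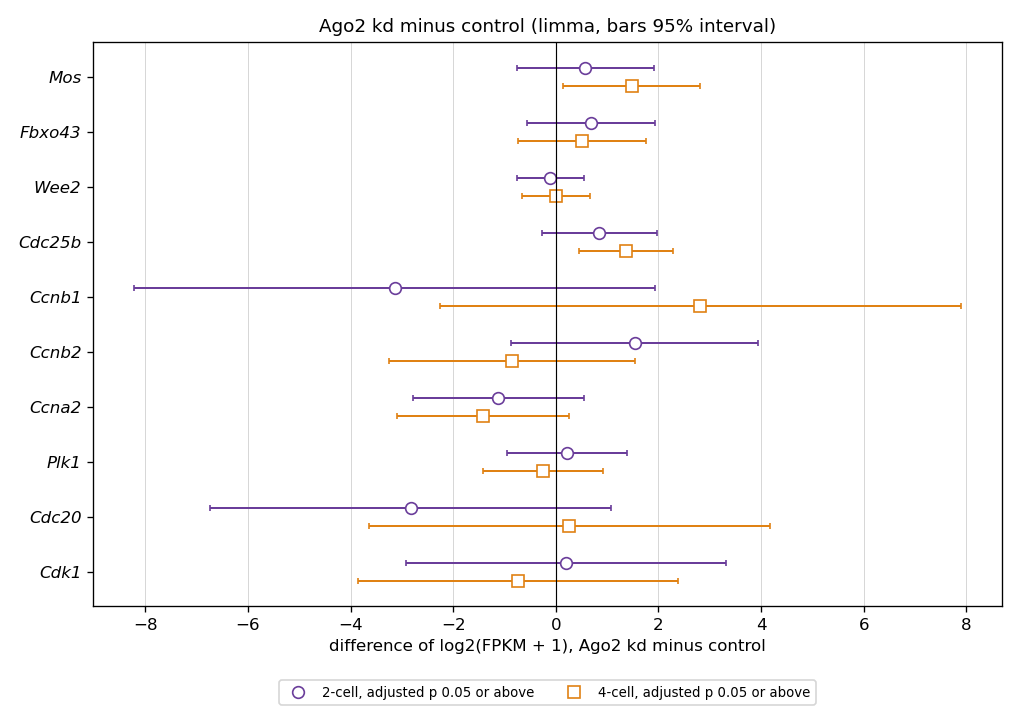
Difference in log2(FPKM + 1) between Ago2 kd and control embryos on the horizontal axis for the 10 genes on the vertical axis; circles are 2-cell, squares 4-cell, and bars the 95% interval. Every symbol is open, since none passed the adjusted threshold, and only the 4-cell intervals of Mos and Cdc25b lie wholly above 0.

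The difference of the kd effect between the stages was tested as an interaction. For the 10 genes 0 passed against 2.25% of all genes, and 0 had an unadjusted p below 0.05 against 13.2%, by limma. Within the Ago2 kd embryos, 3 of the 10 genes were lower at 4-cell than at 2-cell (Fbxo43, Wee2 and Cdc25b) against 16.3% of all genes, and 1 was higher (Cdc20) against 18.6%. Fbxo43 fell by 5.19 ± 0.53 log2 units (adjusted p = 0.000667) and Cdc25b by 3.26 ± 0.46 (adjusted p = 0.00336). Cdc20 rose by 8.80 ± 1.65 (adjusted p = 0.00651), and these calls, with that of Wee2, were kept in 18 of 18 alternatives. For Cdc25b the reservation on its block holds here too, since no alternative left that block out. Ccnb2, above 7 FPKM in both 2-cell and at 0 in both 4-cell Ago2 kd libraries, missed with an adjusted p of 0.0522, which ran from 0.0114 to 0.158 over the alternatives and passed in 6 of 18. These were the settings without either 2-cell control (0.0114 and 0.0118), the fit of the compared groups alone (0.0382), quantile normalization (0.0423), the replicate block (0.0475) and median scaling (0.0482).

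The spread between replicates set these limits. Of the 32 pairs of replicate values of the 10 genes with a value above 10 FPKM, 4 were more than 8-fold apart: Ccnb1 in 2-cell control and 4-cell Ago2 kd, Cdc20 in 2-cell control and Cdk1 in 4-cell Ago2 kd. Over all genes, such gaps were found in 9.05% of pairs for genes with 1 annotated transcript, in 19.6% for those with 2 to 4 and in 22.4% for those with 5 or more. Ccnb1 and Cdk1 have 7 annotated transcripts, Cdc20 has 3, and Mos and Ccnb2 have 1. Nothing in the sources says whether the 2 libraries of a group came from separate collections, so the p-values measure the spread between these libraries alone.

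**Figure D4:**
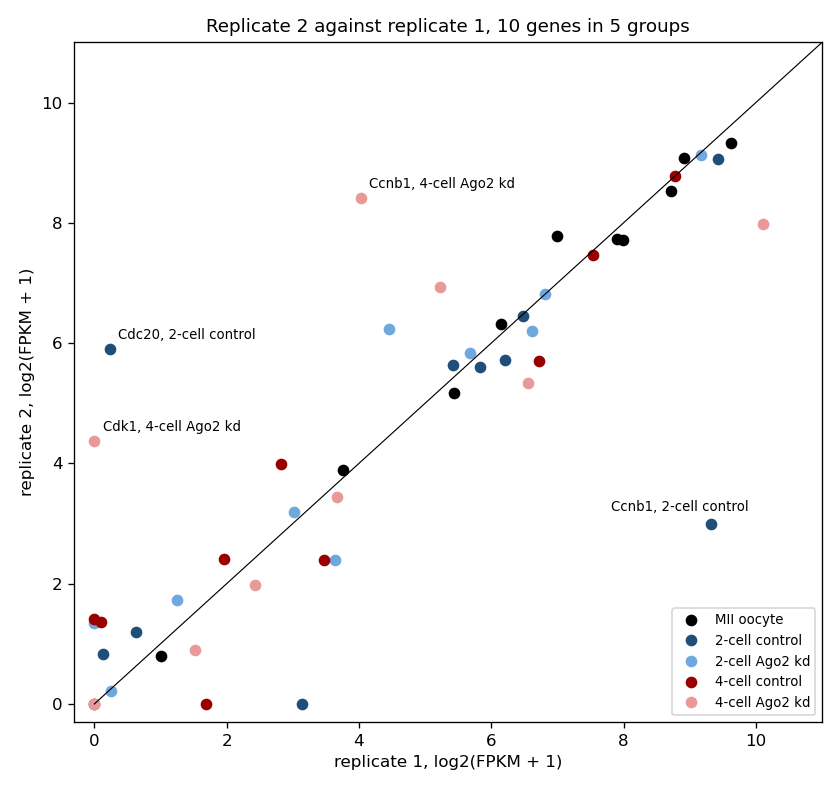
Replicate 2 on the vertical axis against replicate 1 on the horizontal axis, both as log2(FPKM + 1), for the 10 genes in the 5 groups (colours); the line marks equal values. The 4 named points are the pairs more than 8-fold apart with a value above 10 FPKM, and the oocyte points lie near the line.

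Genes that work with these 10 were read from 7 lists, 86 genes in all, of which 78 have a row and 64 passed the filter. From MII oocyte to 2-cell, 14 of the 64 were lower and 2 higher, against 14.2% and 6.53% of all genes, with a median difference of -1.11 beside -0.06 over all genes tested. From 2-cell to 4-cell, 12 were lower and 9 higher, against 17.4% and 21.1%, with a median of 0.50 beside 0.24. From oocyte to 4-cell, 20 were lower and 9 higher, against 26.3% and 22%, with a median of -0.84 beside 0. These medians were taken on the deposited scale, without scaling of the libraries. The counts of each list below stand against these same shares.

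Among the other regulators of the CDK1 kinase (12 tested), 4 were lower and 0 higher from oocyte to 2-cell (14.2% and 6.53% of all genes), 2 were lower and 2 higher from 2-cell to 4-cell (17.4% and 21.1%), and 5 were lower and 2 higher from oocyte to 4-cell (26.3% and 22%). Cdc25a, a phosphatase of the same family as Cdc25b, was lower at the first step and higher at the second: it was at 47.2 and 20.8 FPKM in oocytes, 0.721 and 0.427 in 2-cell controls and 75.9 and 70.5 in 4-cell controls (-4.37, adjusted p = 0.00505, then 5.56, adjusted p = 0.00108). Wee1, the somatic relative of Wee2, went the other way from it: 0 and 1.52 FPKM in 2-cell controls and 19.7 and 29.8 in 4-cell controls (3.99, adjusted p = 0.0325, past the threshold in 10 of 18 alternatives). Cks1b, a small CDK-binding protein, fell from 120 and 180 FPKM at 2-cell to 24.3 and 13.8 at 4-cell (adjusted p = 0.00223).

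Of the MAP kinase cascade below MOS, 4 genes were tested, and at the second step 2 were lower and 1 higher. Map2k1, which encodes MEK1, was at 278 and 256 FPKM in oocytes, 173 and 132 in 2-cell controls and 13.0 and 9.38 in 4-cell controls (-3.66 at the second step, adjusted p = 0.000438). Map2k2, which encodes MEK2, took the opposite course, from 10.99 and 6.49 FPKM at 2-cell to 154 and 167 at 4-cell (4.09, adjusted p = 0.000557). Mapk3, the ERK1 gene, was listed at 0 in both 4-cell controls after 4.04 and 13.96 FPKM at 2-cell (adjusted p = 0.0325, in 13 of 18 alternatives).

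Of the APC/C and its regulators (19 tested), 4 were lower and 0 higher at the first step (14.2% and 6.53% of all genes), and 1 was lower and 2 higher at the second (17.4% and 21.1%). Fbxo5, which encodes EMI1, the relative of EMI2, was at 363 and 339 FPKM in oocytes, 7.82 and 20.8 in 2-cell controls and 67.7 and 39.7 in 4-cell controls; its difference of -4.66 log2 units at the first step passed (adjusted p = 0.00359), that of 1.93 at the second did not (adjusted p = 0.0559), and that of -2.74 from oocyte to 4-cell did (adjusted p = 0.0125). Cdc27, an APC/C subunit, was at 41.5 and 14.9 FPKM in oocytes, 0.0947 and 0.119 in 2-cell controls and 27.2 and 29.9 in 4-cell controls (-4.56, adjusted p = 0.00145, then 4.74, adjusted p = 0.000692), with a difference of 0.18 from oocyte to 4-cell (adjusted p = 0.810). The subunit gene Anapc7 rose at the second step from 1.47 and 2.12 to 46.0 and 30.3 FPKM (adjusted p = 0.000501), and Anapc10 fell from 32.9 and 22.5 to 4.19 and 7.04 (adjusted p = 0.00445).

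The genes of the Greatwall and PP2A branch, which acts on the phosphates set by CDK1 (8 tested), gave 2 higher and 1 lower at the second step. Ppp2ca, a catalytic PP2A subunit, was at 0.0468 and 0.159 FPKM in 2-cell controls and 83.5 and 55.3 in 4-cell controls (5.97, adjusted p = 0.00109). Its partner in name Ppp2cb rose from 2.55 and 4.47 to 31.0 and 34.9 (adjusted p = 0.00655). Arpp19, an inhibitor of PP2A when phosphorylated by Greatwall, fell from 73.3 and 60.1 to 6.77 and 10.6 FPKM (-2.83, adjusted p = 0.00603).

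Polo-like and Aurora kinases and their cofactors (9 tested) gave 1 lower and 1 higher at the first step. Plk2 was at 0.729 and 0 FPKM in oocytes and at 23.7 and 18.2 in 2-cell controls (4.05, adjusted p = 0.00440). Tpx2, an activator of Aurora A, fell from 104 and 117 to 32.7 and 35.4 (adjusted p = 0.00774, in 16 of 18 alternatives). The Tpx2 call was lost under both scalings, and its difference ran from -1.76 to -0.65 over the alternatives. Cdca8, a subunit of the chromosomal passenger complex, was at 201 and 259 FPKM in 2-cell and 2.40 and 2.35 in 4-cell controls (-6.08, adjusted p = 0.0375, in 10 of 18 alternatives). Birc5, which encodes survivin of the same complex, went from 797 and 926 to 346 and 263 FPKM (-1.51, adjusted p = 0.0271, in 13 of 18), and Incenp from 0 in both 2-cell controls to 22.3 and 48.1 FPKM (adjusted p = 0.0342, in 9 of 18).

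The cAMP branch that keeps the immature oocyte in prophase (8 tested) had 4 genes lower and 0 higher at the first step and 2 lower and 0 higher at the second. Gnas, the stimulatory G protein, went from 100 and 125 FPKM in oocytes to 11.4 and 13.6 in 2-cell controls (-3.06, adjusted p = 0.00926). Its call was kept in 16 of 18 alternatives and lost with quantile normalization and without an oocyte library. Pde3a, the phosphodiesterase that breaks down oocyte cAMP, was at 35.6 and 37.2 FPKM in oocytes, 3.27 and 3.71 in 2-cell controls and listed at 0 in both 4-cell controls. Adcy9, an adenylyl cyclase, was at 7.50 and 8.42 FPKM in oocytes and listed at 0 in both 2-cell controls (adjusted p = 0.00128).

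Of the G1 and S cyclins and their kinases (4 tested), 2 were lower and 1 higher at the second step. Ccne2, cyclin E2, went from 97.5 and 82.5 FPKM to 0.0604 and 0 (adjusted p = 0.00551), and Cdk4 from 0.181 and 0.208 to 50.3 and 41.3 (5.28, adjusted p = 0.0210, in 13 of 18 alternatives). Ccnd1, cyclin D1, fell from 27.3 and 14.5 to 4.58 and 6.83 FPKM (adjusted p = 0.0274, in 13 of 18) and stands in the same last block of the table as Cdc25b.

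Between Ago2 kd and control, 0 of the 64 list genes passed at 2-cell after adjustment against 0.539% of all genes, and 3 had an unadjusted p below 0.05, all lower in Ago2 kd, against 5.8%, with a median difference of -0.000483 beside 0 over all genes. At 4-cell 3 passed against 3.91% of all genes, all lower in Ago2 kd, as were 241 of the 341 calls over all genes. Unadjusted, 3 were higher and 8 lower against 15.3%, with a median of -0.03 beside 0. Map2k1 was listed at 0 in both 4-cell Ago2 kd libraries (adjusted p = 0.00215) against 13.0 and 9.38 FPKM in controls. Cdc27 was at 0.129 and 0.118 FPKM against 27.2 and 29.9 (-4.72, adjusted p = 0.00350), near its 2-cell level, and Anapc7 was at 9.26 and 7.12 against 46.0 and 30.3 (-2.07, adjusted p = 0.0321). Map2k1 and Cdc27 were kept in 17 of 18 alternatives and lost when the 4 libraries of the stage were fitted alone, where 0 of all genes passed at either stage. Anapc7 was kept in 6 of 18.

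The gene most like each of the 10 over the 10 libraries, by Pearson's r of log2(FPKM + 1) among 73 candidates (the other 9 genes and the 64 list genes), was given as a description only, since the libraries share stages. Mos was most like Adcy9 (r = 0.937), Fbxo43 like Cdkn1b (0.953), Wee2 like Fbxo43 (0.950) and Cdc25b like Wee2 (0.928). Among the others, Plk1 was most like Anapc4 (0.923), Cdc20 like Bora (0.929), Cdk1 like Cdk7 (0.918) and Ccnb1 like Ube2d1 (0.839). Ccnb2 (Cdkn1b, 0.815) and Ccna2 (Cdk2, 0.750) had the lowest values of the 10.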

How the data were processed

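RNA-seq of 5 groups with 2 libraries each was analysed, with groups and replicate numbers taken from the labels. According to the Methods, the authors used FastQC and Trim Galore on the reads, HISAT2 for alignment to GRCm38.p6, HTSeq-count for counting and DESeq2 for their own tests; the submitters' processing notes name CASAVA 1.4, HISAT2 2.1.0 and StringTie. The values are FPKM that the authors computed with StringTie and deposited, 1 per gene name. How several transcripts were reduced to 1 value is not given in the sources used here, and without counts the sequencing depth and its error are unknown, so precision was judged from replicates.

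FPKM were tested as log2(FPKM + 1) with limma 3.58.1 in R 4.3.3, without further scaling. The model held 1 mean per group over all 10 libraries (5 residual degrees of freedom, empirical Bayes variances with a trend on the mean) and covered the 8726 genes that reached 1 FPKM in 2 or more libraries. Tests were two-sided, and p-values were adjusted by Benjamini-Hochberg over all 8726 genes. A fold on this scale understates the change of low genes. The model was tested on data simulated with normal noise and 1 spread per gene, so a spread that differs between groups was not tried. The identical values of both 2-cell Ago2 kd libraries in 196 genes were counted once.

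The 10 genes were all described. The list genes named were drawn, among called genes of each list, from up to 2 of the largest rises and 2 of the largest falls per control comparison and every call between Ago2 kd and control. Genes and lists were chosen with earlier results of these data known. Alternatives were another pseudocount, no filter, each library scaled to the same median, quantile normalization, a replicate block, fits of the compared groups alone, no variance trend and leaving out each library. Positions, transcripts and exons came from GENCODE M21, promoters from RefSeq, and near-identical copies (at least 90% identity over 500 bases) from BLAST 2.17.0. Figures were drawn with matplotlib 3.10.9.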

Additional observations from a re-analysis of the deposited data

How the results depend on the processing

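Of 18 alternatives, 17 were planned, and 1, counting the identical 2-cell Ago2 kd values as 2 libraries, was chosen after seeing the data; it changed no count of called genes among the 10. From MII oocyte to 2-cell, the 4 called genes became 2 with a pseudocount of 0.1 and 2 without the filter on low values, Mos and Plk1 in both. With each library scaled to the same median, and with quantile normalization, 2 genes were called as well. Of these, only Mos was among the 4 lower genes. The other was Wee2, called as higher (1.25 and 1.70). The count also fell when a library was left out. Counts of the 10 genes in the other comparisons stayed within 1.5 times. The replicate block gave 3 called genes from MII oocyte to 2-cell, 4 from 2-cell to 4-cell, 6 from MII oocyte to 4-cell, 0 for Ago2 kd at either stage and 5 within Ago2 kd. The differences between replicates 1 and 2 were hardly correlated between groups over the genes (r from -0.0923 to 0.0926). Such correlations cannot show whether libraries of the same number shared a collection or a batch, which the sources do not give.

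Signs turned only in differences that were not past the threshold as reported. Under median scaling and quantile normalization, Cdc20 from MII oocyte to 4-cell turned to 0.10 and 0.56, and Plk1 within Ago2 kd to -0.32 and -0.35. At 2-cell, the kd difference of Cdk1 was -0.0397 with a pseudocount of 0.1 and that of Wee2 0.0243 with quantile normalization. Leaving out libraries gave these ranges: Ccnb1 -5.91 to 0.42, Ccnb2 -2.29 to 0.85, Mos -0.82 to 0.44 from 2-cell to 4-cell, Wee2 -0.29 to 0.0811, Ccnb1 -6.30 to 0.0285, Cdk1 -0.48 to 0.87, Ccnb2 -0.0327 to 3.10, Cdc20 -5.66 to 0.00296 for Ago2 kd at 2-cell, Fbxo43 -0.20 to 1.21, Plk1 -0.87 to 0.35, Cdc20 -0.80 to 1.32, Cdk1 -2.93 to 1.45 for Ago2 kd at 4-cell, and Ccna2 -0.16 to 1.62, Plk1 -0.41 to 0.81, Cdk1 -0.68 to 3.70 within Ago2 kd. The cause was not tested. Over all genes, the calls between Ago2 kd and control fell from 47 at 2-cell and 341 at 4-cell to 0 and 0 when the compared groups were fitted alone. Depth is unknown, and with 2 libraries per group a difference such as that of Ccnb1 cannot be fixed to within several log2 units.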
